A study of Arabidopsis thaliana with 21 samples.

Results

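Shoots of Arabidopsis thaliana accession Col-0 held for 5 h in standard light were compared with shoots taken at the end of the night, across all genes counted. The members were chosen by sample label: the 3 libraries of the group lit for 5 h and the 3 libraries of the dark group, which are 6 of the 21 libraries of the series. All plants were Col-0, with no mutation or transgene named in the labels. They were 21 days old, raised in soil pots at 22 °C under fluorescent lamps in days of 16 h and nights of 8 h, and stood overnight in sealed chambers with flowing air before whole shoots were harvested. The dark group (0 h) was taken at the end of the night, and the lit group after 5 h under an LED source at 100 µE, so light and time of day cannot be told apart. The other groups of the series, used here for 2 further comparisons, were lit at 100 µE for 2 h or 8 h; those lit at 500 µE entered the shared estimate of the spread between replicates. The samples are labelled as biological triplicates, but the number of plants in a sample is not given, so the p-values reflect the spread among these samples, which may be technical.

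In plants, a circadian clock of interlocked repressors sets the time of day at which genes are read. The Myb-like factors CCA1 and LHY, made around dawn, hold back genes of the afternoon and evening, which in turn hold back the dawn genes, and many of the targets of CCA1 carry a short sequence called the evening element. Light also ends the night's shortage of sugar: leaves store starch by day and break it down by night, and the SnRK1 kinase and its bZIP factors switch on genes for breaking down amino acids when sugar runs short. Photosynthesis then supplies carbon, while the genes for its antenna, its carbon-fixing cycle and chlorophyll are themselves under clock and light control.

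Expression is given in CPM, the count of a gene relative to its library's total after scaling by the trimmed mean of M values (TMM). A gene was called changed at an adjusted p under 0.05 in edgeR's quasi-likelihood test with Benjamini-Hochberg adjustment over all 19626 genes tested; rose and fell below mean called higher or lower at 5 h than in the dark, and every adjusted p comes from that test. The 6 libraries held 12778575 to 16229322 counts. Chloroplast genes took 35.5 to 43.7% of the counts in the dark and 48.0 to 50.4% at 5 h, and ribosomal RNA took 0.133 to 6.96% and 2.07 to 4.55%. Dark replicate 2 had 3.62% mitochondrial counts against 0.781 to 1.01% in the other 5 libraries. Of 7 lists of cell type markers none was at 0 throughout. The summed CPM of 3 mesophyll markers was 14300 to 21910 in the dark and 9249 to 10230 at 5 h, that of 5 vascular markers was 79.2 to 87.4 and 38.5 to 59.7, that of 6 root markers was 35.8 to 57.2 and 19.0 to 34.4, and that of 5 guard cell markers was 20.9 to 23.2 and 26.6 to 34.6. Of 4 guard cell markers tested only KAT1 rose (log2 fold change 2.02) and 3 did not pass, with a median of -0.17. In shoot RNA a change in the cells of a type, in RNA per cell or in the marker genes themselves with light or time cannot be told apart. The part of these shifts in the results below was not tested.

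After 5 h of light, 4495 genes had risen and 4665 had fallen, so that 9160 of 19626 genes tested, or 46.7%, were called. The called shares were 22.9% higher and 23.8% lower, and the median log2 fold change of all genes was 0.00. Counts in the gene lists below are to be read beside these shares. Changes of at least 8-fold were common in both directions, with 585 genes higher (2.98%) and 655 lower (3.34%). In 11881 genes (60.5%) the 3 libraries at 5 h did not overlap the 3 dark libraries. In the authors' deposited table of the same comparison 5788 genes were listed, 2810 higher and 2978 lower. All 5788 were called here in the same direction, and they made up 63.2% of the calls made here. The smallest absolute log2 fold change in that table was 0.836, while the calls here had no fold threshold. Both rest on the same counts and on edgeR, so the overlap is no independent check.

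The promoter sequences that go with the largest changes are shown first, because the shares of some motifs differed between risen and fallen genes. Windows from 250 bases before to 50 bases after the annotated start of 18646 tested nuclear protein-coding genes were read from the RefSeq genome (TAIR10.1) and searched on both strands for 8 motifs, none of which holds the letters of another. The evening element, AAAATATCT, lay in 3.14% of all these windows, in 5.99% of those of risen genes, in 2.02% of those of fallen genes, and in 12.9% of the 527 windows of genes that rose at least 8-fold. The I-box, GATAAG, went the other way: 14.9% of all windows held it, against 12% for risen genes, 20.2% for fallen genes and 26.0% of the 589 windows of genes that fell at least 8-fold. The telo box, AAACCCTAA, found in promoters of ribosome biogenesis and ribosomal protein genes, was in 5.46% of risen and 1.35% of fallen windows, beside 3.22% of all. The site II element, TGGGCC, was in 19.5% of all windows, 21.7% of risen and 15.6% of fallen ones. Its share was below that of all windows in both groups of at least 8-fold, at 16.1% for genes that rose and 7.98% for genes that fell. A shorter CCA1 binding site, AAAAATCT, was in 10.0% of risen and 7.44% of fallen windows, against 8.26% of all. Shares of the G-box (CACGTG), the heat shock element (GAANNTTC) and the bZIP element (ACTCAT) lay within 2 percentage points between risen and fallen genes. A match describes these letters only, and shares this close or this far apart were not tested.

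**Figure D1:**
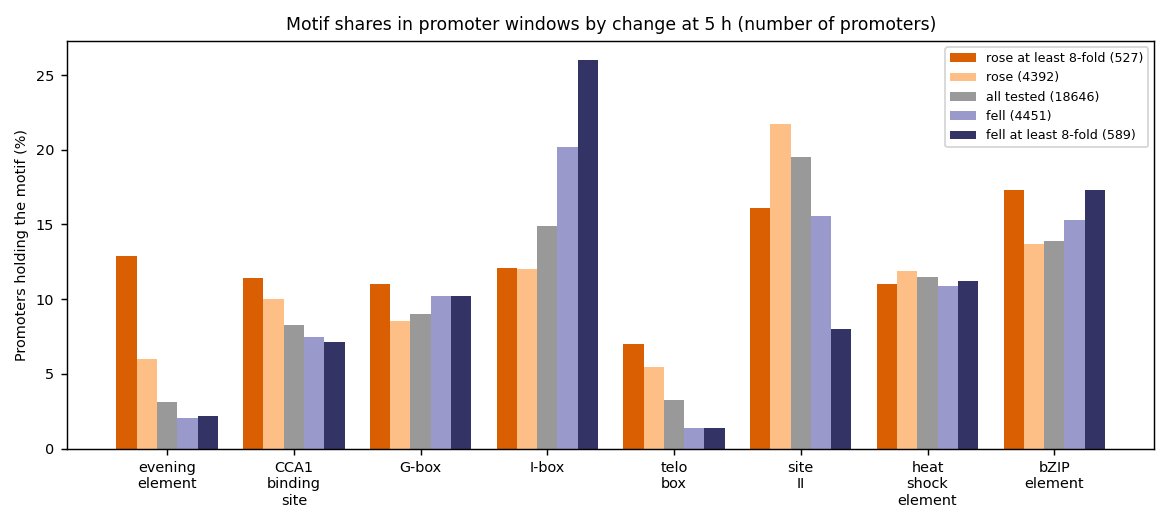
Share of promoter windows (percent, vertical axis) that hold each motif, for genes that rose or fell, rose or fell at least 8-fold, and all genes tested; the number of windows is in the key. The evening element stands at 12.9% in the strongest risers and 3.14% in all windows, and the I-box at 26.0% in the genes that fell at least 8-fold.

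Evening elements in genes of the afternoon and evening clock and of starch breakdown are shown because most members of both groups rose, with the motif in capitals, read from 5′ to 3′ on the gene's strand of TAIR10.1, where AGATATTTT is the same element on the other strand.
FKF1 (chr1:25508423-25508491, + strand): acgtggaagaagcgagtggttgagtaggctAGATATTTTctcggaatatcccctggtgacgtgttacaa
PRR5 (chr5:8358695-8358763, - strand): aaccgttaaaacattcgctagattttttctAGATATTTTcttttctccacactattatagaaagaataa
TOC1 (chr5:24674782-24674850, + strand): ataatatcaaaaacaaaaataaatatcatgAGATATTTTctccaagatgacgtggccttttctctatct
LUX (chr3:17182959-17183027, + strand): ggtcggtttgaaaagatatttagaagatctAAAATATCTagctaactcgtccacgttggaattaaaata
ISA3 (chr4:5783840-5783908, + strand): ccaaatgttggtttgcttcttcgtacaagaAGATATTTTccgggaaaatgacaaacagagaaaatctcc
PWD (chr5:9261416-9261478, + strand): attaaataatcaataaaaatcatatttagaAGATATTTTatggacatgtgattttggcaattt
BOA (chr5:24003815-24003883, + strand): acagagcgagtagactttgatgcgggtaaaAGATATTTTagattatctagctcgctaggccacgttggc
All 7 stretches lie before the annotated start of their gene and overlap no other annotated locus. All of these genes rose except BOA, which did not pass (log2 fold change -2.09, adjusted p = 0.155). In all, 6 of 14 windows of day and evening clock genes held the element, and 5 of these 6 genes rose, as did all 4 of the 16 starch breakdown genes with it. With or without the element, 8 of the 14 and 11 of the 16 rose. The element did not go with rises alone. Of 9 photoperiod genes 3 held it, of which 2 rose and COL2 fell (log2 fold change -7.61). Other lists held risen genes with it, such as PORB, and fallen ones, such as KMD4 (-2.86).

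Genes of the morning clock, of which most fell, held a G-box in 10 of 14 windows, against 8.98% of all windows. Of these 10 genes 9 fell. The G-box did not go with falls alone: it stood in 6 of 16 starch breakdown windows, and 5 of these 6 genes rose. The stretches of 5 of the morning genes follow, with the G-box in capitals.
CCA1 (chr2:19245368-19245433, + strand): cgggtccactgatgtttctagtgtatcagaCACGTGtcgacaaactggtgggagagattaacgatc
LHY (chr1:37916-37981, - strand): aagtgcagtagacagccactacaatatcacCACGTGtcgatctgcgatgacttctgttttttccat
RVE1 (chr5:5693068-5693133, - strand): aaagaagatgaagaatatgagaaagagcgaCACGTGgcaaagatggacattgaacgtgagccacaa
RVE2 (chr5:14753216-14753281, - strand): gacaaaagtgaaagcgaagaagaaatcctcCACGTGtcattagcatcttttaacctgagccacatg
LNK3 (chr3:3923314-3923409, + strand): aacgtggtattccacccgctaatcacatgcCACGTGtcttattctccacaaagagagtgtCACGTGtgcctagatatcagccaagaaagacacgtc
The I-box stood in 15 of the 27 windows of genes of darkness and carbon starvation, and 14 of these 15 genes fell. With or without the I-box, 24 of the 27 fell. It also stood in 16 of 31 windows of photosystem and electron carrier genes, of which 5 fell and 2 rose. SEN1 and TPS8, of the darkness and carbon starvation list, each held it at 2 places, in capitals here on either strand.
SEN1 (chr4:16944752-16944877, + strand): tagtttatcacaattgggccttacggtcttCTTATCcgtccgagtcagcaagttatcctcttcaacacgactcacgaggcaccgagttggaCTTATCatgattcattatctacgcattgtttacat
TPS8 (chr1:26474903-26474976, - strand): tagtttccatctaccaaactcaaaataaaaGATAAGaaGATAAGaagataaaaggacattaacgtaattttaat
The members of these lists were chosen with results of these data known, so the counts within them are a description.

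Genes of the morning clock were low by 5 h. Of 14 dawn genes, all tested, 11 fell, 1 rose and 2 did not pass, with a median log2 fold change of -4.21 beside 0.00 for all genes. CCA1, the Myb-like repressor that gives the clock its dawn phase, stood at 653, 504 and 522 CPM in the dark and at 10.6, 15.6 and 11.8 CPM at 5 h. All 3 lit libraries lay far below all 3 dark ones, and CCA1 fell by 5.46 on the log2 scale (SE 0.29, adjusted p = 2.00e-13). Its partner LHY went from 463, 408 and 468 CPM to 14.9, 23.2 and 22.3 CPM, a log2 fold change of -4.47 (SE 0.26, adjusted p = 9.72e-13). RVE1, a related factor that links the clock to auxin, had the largest drop of the list: 472, 460 and 544 CPM in the dark and 0.714, 0.189 and 1.23 CPM at 5 h, a log2 fold change of -9.41 (SE 0.40, adjusted p = 7.25e-15).

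RVE8 and RVE4, close relatives that activate evening genes, fell as well, RVE8 from 58.5 to 68.4 CPM down to 2.46 to 3.40 CPM and RVE4 from 194 to 248 CPM down to 12.8 to 14.4 CPM. Their coactivators of the LNK family split: LNK2, LNK3 and LNK4 fell by 4.81, 4.49 and 4.43 on the log2 scale, while LNK1 rose from 49.6 to 59.2 CPM up to 74.3 to 94.1 CPM (log2 fold change 0.63, SE 0.17, adjusted p = 0.00345). RVE7 (log2 fold change -0.24) and the Myb-like locus AT5G52660 (0.72) did not pass. The count of risen genes was 2 in place of 1 in 5 of the alternative analyses, among them the fit without dark replicate 1.

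The day and evening genes stood at the opposite pole. Of 14 tested, 8 rose, 2 fell and 4 did not pass, with a median log2 fold change of 1.99. GI, a scaffold of the evening clock and of flowering time, had 1.59, 0.981 and 1.03 CPM in the dark and 108, 121 and 116 CPM at 5 h, a log2 fold change of 6.57 (SE 0.26, adjusted p = 2.55e-15). PRR5, a repressor of CCA1 and LHY, went from 1.45, 2.73 and 1.77 CPM to 116, 118 and 134 CPM, or 5.94 on the log2 scale (SE 0.32, adjusted p = 3.08e-13). The blue light receptor and F-box protein FKF1 had 2 counts in the dark libraries together and 3190 in the lit ones, or 56.9, 66.9 and 82.0 CPM at 5 h. That ratio was 1463-fold, with an exact 95% interval of 405 to 12090 that covers counting error only (adjusted p = 6.74e-14).

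ELF4, a subunit of the evening complex, had no count in any dark library and 1.28, 1.45 and 5.12 CPM at 5 h. It was at least 12.3-fold higher than a floor of 3 counts in each dark library (adjusted p = 1.74e-05). LUX, the DNA-binding subunit of the same complex, rose from 2.03 to 2.73 CPM up to 11.5 to 13.3 CPM, whereas ELF3, the subunit that joins them, stood at a mean of 20.7 CPM in the dark and 20.1 CPM at 5 h and did not pass. TOC1, an evening repressor of CCA1, had 8.29, 16.0 and 10.5 CPM in the dark and 42.1, 33.3 and 45.5 CPM at 5 h (log2 fold change 1.80, SE 0.23, adjusted p = 4.96e-07). PRR3, a stabiliser of TOC1, went from 0.138, 0 and 0.664 CPM to 13.3, 12.4 and 14.1 CPM, and PRR9, the earliest of the PRR repressors, from 3.39 to 6.94 CPM to 22.2 to 25.7 CPM. The 2 members that fell were ZTL (log2 fold change -1.16) and LKP2 (-1.01), F-box relatives of FKF1.

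**Figure D2:**
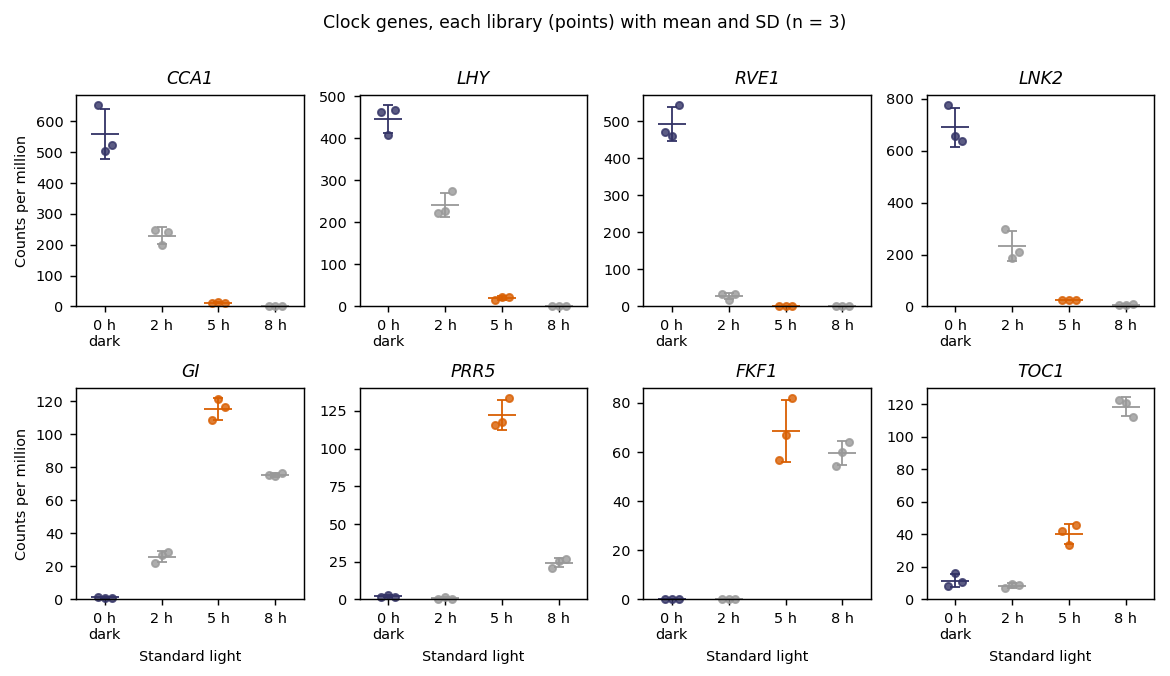
CPM (vertical axes, from 0) of 8 clock genes in the dark and after 2, 5 and 8 h of standard light; points are libraries, bars the mean and SD of 3. The dawn genes in the top row are near 0 at 5 h (orange), and GI and PRR5 are higher at 5 h than at either other time in the light.

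Direct tests between the lit groups placed 5 h within the day; they share the libraries at 5 h with the comparison above, so they are not independent of it. Between 5 h and 2 h of light 4038 genes (20.6%) differed, 1969 higher (10%) and 2069 lower (10.5%) at 5 h. Between 5 h and 8 h 4103 (20.9%) differed, 2081 higher (10.6%) and 2022 lower (10.3%) at 5 h. PRR5 showed no early rise: it had 0, 1.31 and 0.634 CPM at 2 h, 7.30 below its level at 5 h on the log2 scale (adjusted p = 1.15e-12), and by 8 h it had 21.0, 25.4 and 26.7 CPM, 2.33 below 5 h (adjusted p = 5.43e-07). GI was also higher at 5 h than at 8 h, by 0.61 (adjusted p = 0.0214). TOC1 and LUX went the other way, TOC1 with 112 to 123 CPM at 8 h and LUX with 47.9 to 51.2 CPM. FKF1 had no count at 2 h, which puts it at least 236-fold higher at 5 h, and its log2 difference of 0.21 between 5 h and 8 h did not pass (adjusted p = 0.623). PRR9 had already passed its highest level of the 4 times, with 61.5 to 132 CPM at 2 h against 0.918 to 1.89 CPM at 8 h. CCA1 had 198 to 249 CPM at 2 h and 0.677 to 1.28 CPM at 8 h, so 5 h lay between them on its way down.

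Clock outputs that time flowering followed the dawn genes. Of 9 photoperiod genes tested of 10 listed, 6 fell, 2 rose and 1 did not pass (median -1.82); the 10th, FT, had too few counts to be tested. COL2, a relative of CONSTANS with a B-box domain, went from 329, 321 and 347 CPM to 1.43, 2.33 and 1.29 CPM, a log2 fold change of -7.61 (SE 0.31, adjusted p = 2.55e-15). CDF2, a Dof-type repressor of CONSTANS, went from 201, 163 and 163 CPM to 1.43, 0.378 and 1.54 CPM, or -7.30 (SE 0.40, adjusted p = 8.41e-13). CDF1, from the same family, fell by less, from 15.6 to 22.2 CPM to between 4 and 6.14 CPM (log2 fold change -1.82, SE 0.29, adjusted p = 1.14e-05). CONSTANS itself (CO) had at most 0.841 CPM in these 6 libraries and did not pass (adjusted p = 0.712). COR27 rose, and so did AT4G33980, listed as COR28 and annotated as an uncharacterised protein. AT4G33980 went from 0.221 to 0.553 CPM to 16.7 to 32.2 CPM.

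The wider B-box family, zinc-finger regulators of light responses, mostly fell: of 16 tested of 17 listed, 9 fell, 2 rose and 5 did not pass. BBX22, which promotes light-grown development, was the exception in size, with 3.87, 0.981 and 0.738 CPM in the dark and 98.0, 109 and 111 CPM at 5 h (log2 fold change 5.81, SE 0.42, adjusted p = 2.97e-10). BBX15 rose by 0.70. BBX25 fell from 88.3 to 107 CPM to 5.00 to 9.43 CPM, and BBX20 and BBX19 had log2 fold changes of -5.13 and -3.54.

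Among 23 genes of light signalling 13 fell, 3 rose and 7 did not pass (median -0.92). PHYA, the receptor of far-red light, went from 445, 458 and 384 CPM to 26.0, 25.7 and 25.2 CPM, a log2 fold change of -4.06 (SE 0.19, adjusted p = 1.35e-14). Between 2 h and 5 h its difference did not pass (log2 difference -0.20, SE 0.17, adjusted p = 0.467). PHYB, the main red light receptor, did not pass (log2 fold change -0.34), and the blue light receptor CRY1 fell by 1.47. HY5, the bZIP factor that drives development in light, had 13.7, 25.2 and 14.8 CPM in the dark and 1.64, 2.21 and 2.40 CPM at 5 h (log2 fold change -3.09, SE 0.28, adjusted p = 1.83e-09), and its homologue HYH fell by 2.92. RUP1 and RUP2, which end UV-B signalling, fell by 5.40 and 4.38. Of the phytochrome-interacting growth factors PIF5 fell by 2.84 and PIF1 by 1.51, PIF7 rose by 1.54, and PIF3 and PIF4 did not pass.

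The night's starvation genes were the most uniform group. Of 27 genes of darkness and carbon starvation 24 fell, 1 rose and 2 did not pass, with a median log2 fold change of -4.29. DIN10, named for its induction in the dark and annotated as a raffinose synthase, had 1640, 2395 and 1848 CPM in the dark and 7.63, 2.96 and 2.40 CPM at 5 h, a log2 fold change of -8.83 (SE 0.55, adjusted p = 6.08e-11). ASN1, the asparagine synthetase made when carbon is short, went from 1092, 1444 and 1103 CPM to 4.28, 13.9 and 13.7 CPM, or -6.83 (SE 0.52, adjusted p = 2.46e-09). SEN1, a marker of darkness and senescence, went from 931, 962 and 741 CPM to 2.00, 5.49 and 4.87 CPM, or -7.72 (SE 0.53, adjusted p = 4.54e-10).

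The other members came from the same routes. Among enzymes that break down branched-chain amino acids, the log2 fold changes were -5.95 for BCAT2, -6.67 for MCCA, -2.58 for MCCB and -3.53 for IVD, and DIN3 and DIN4, subunits of the keto acid dehydrogenase, fell by 4.58 and 4.29. Glutamate dehydrogenases GDH1 and GDH2 fell by 4.54 and 4.78. The class II trehalose phosphate synthase genes TPS8, TPS9, TPS10 and TPS11 fell by 4.1, 6.81, 2.14 and 4.1, and the SnRK1 subunit AKINBETA1 by 6.88. The bZIP factors split. BZIP1, BZIP53 and BZO2H3 fell by 4.68, 2.05 and 5.37, and BZIP11, whose translation sucrose represses, rose from 0.561 to 1.99 CPM to 5.42 to 6.35 CPM (log2 fold change 2.44, SE 0.50, adjusted p = 0.000318).

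Most of this fall had happened by 2 h, when 23 of the 27 were already called below the dark level, beside 21.4% of all genes, in a comparison that shares the dark libraries. Tested directly between 5 h and 2 h, 6 were higher and 7 lower at 5 h. ASN1 was higher at 5 h than at 2 h by 2.15 (adjusted p = 0.00361) and SEN1 by 3.47 (adjusted p = 0.000701), each from a low base. Between 5 h and 8 h, 15 of the 27 were lower at 5 h and 1 was higher, as with DIN10, at 10.1 to 16.2 CPM at 8 h (log2 difference -1.62, adjusted p = 0.00958).

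Genes outside the lists with the largest falls were of the same order. ERD5, the proline dehydrogenase that starts proline breakdown, had the largest fall of the genes named by size: 908, 1219 and 1086 CPM in the dark and 1.07, 0.883 and 0.924 CPM at 5 h (log2 fold change -10.12, SE 0.50, adjusted p = 3.77e-13). BT2 and BT5, BTB and TAZ domain proteins, fell by 9.21 and 8.43, BT2 from 738 to 854 CPM to 0.630 to 1.66 CPM. MIOX2, a myo-inositol oxygenase that sends inositol to cell wall sugars, fell by 8.17, and GDPD2, a glycerophosphodiester phosphodiesterase, had a log2 fold change of -8.58. PKS4, a phytochrome kinase substrate, fell from 20.9 to 32.9 CPM to 0.0630 to 0.143 CPM. GAT1_2.1, a glutamine amidotransferase-like protein, had 753 counts in the dark and 1 at 5 h, a ratio of 821 with a 95% interval of 147 to 32460; it passed with edgeR (adjusted p = 1.75e-07) and not with DESeq2 (adjusted p = 0.140). XTH25, a cell wall xyloglucan enzyme, had 686 counts in the dark and 2 at 5 h, a ratio of 374 with an interval of 103 to 3094.

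Genes of starch breakdown rose although starch is mainly used at night. Of 16 tested 11 rose, 3 fell and 2 did not pass, with a median log2 fold change of 2.56. PHS2, the cytosolic glucan phosphorylase, had 19.1, 21.9 and 17.5 CPM in the dark and 971, 1186 and 1198 CPM at 5 h, a log2 fold change of 5.84 (SE 0.24, adjusted p = 2.55e-15). ISA3, the debranching enzyme of starch breakdown, went from 3.94, 4.34 and 3.98 CPM to 146, 169 and 175 CPM, or 5.32 (SE 0.26, adjusted p = 4.89e-14). DPE2, the transglucosidase that uses maltose in the cytosol, went from 19.2, 19.1 and 19.2 CPM to 357, 423 and 400 CPM, or 4.36 (SE 0.19, adjusted p = 8.31e-15).

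The kinases and phosphatase that open the granule surface rose in step: GWD1 from 37.8 to 58.3 CPM to 659 to 822 CPM, PWD by 2.43 and SEX4 by 3.87 on the log2 scale. The plastid phosphorylase PHS1 rose by 3.43, the amylase AMY3 by 3.06 and the disproportionating enzyme DPE1 by 2.69. None of the 4 beta-amylase genes on the list rose. BAM9, a catalytically inactive member, had 402, 277 and 330 CPM in the dark and 1.57, 0.504 and 1.29 CPM at 5 h (log2 fold change -8.23, SE 0.37, adjusted p = 1.53e-14); BAM1 fell by 3.02 and BAM4 by 1.83. BAM3, the main beta-amylase of the night, had 577, 537 and 475 CPM in the dark and 364, 540 and 502 CPM at 5 h, which overlap, and did not pass (log2 fold change -0.18, SE 0.25, adjusted p = 0.586). Outside the list the family held risen members too, BAM5 with a log2 fold change of 5.50 and BAM6 with 3.43. Between 5 h and 8 h 8 of the 16 were higher at 5 h and 1 was lower, and against 2 h 10 were higher and 2 lower.

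Genes of starch synthesis rose too, in 14 of 17, with 1 fall and 2 that did not pass (median 1.61). GPT2, which carries glucose phosphate into the plastid, rose from 0.622 to 0.841 CPM to 10.2 to 19.8 CPM (log2 fold change 4.40, SE 0.52, adjusted p = 7.01e-07). The isoamylase subunit ISA2, the branching enzyme SBE2.1 and APL3, a large subunit of ADP-glucose pyrophosphorylase, rose by 3.28, 3.13 and 2.79. The small subunit APS1 and the main large subunit APL1 rose by 0.70 and 0.54, and the starch synthase SS4 by 2.22. GBSS1, the synthase of amylose, was the member that fell: 139, 122 and 125 CPM in the dark, 286, 319 and 372 CPM at 2 h, 36.4, 72.2 and 58.0 CPM at 5 h and 1.88 to 2.22 CPM at 8 h. Its log2 fold change at 5 h was -1.21 (SE 0.22, adjusted p = 6.37e-05).

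**Figure D3:**
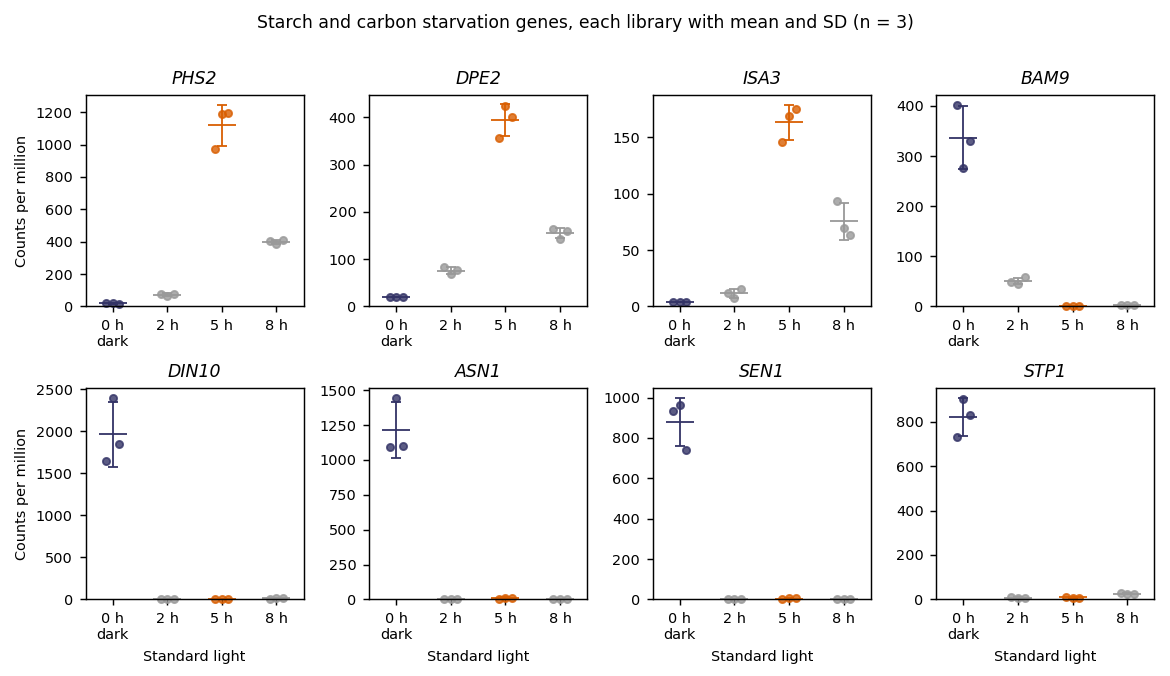
CPM (vertical axes, from 0) of 4 starch genes (top) and 4 genes of darkness and sugar uptake (bottom) in the dark and after 2, 5 and 8 h of standard light; points are libraries, bars the mean and SD of 3. PHS2, DPE2 and ISA3 are highest at 5 h (orange), while the bottom row is near 0 from 2 h on.

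Sucrose synthesis and sugar transport had no common direction, with 4 risen, 4 fallen and 9 not passing of 17 tested. Both shares, 23.5%, were near those of all genes, 22.9% risen and 23.8% fallen. Without dark replicate 2, or without lit replicate 3, 2 fell. The monosaccharide importer STP1 had 732, 901 and 831 CPM in the dark and 12, 7.82 and 7.27 CPM at 5 h (log2 fold change -6.51, SE 0.33, adjusted p = 1.17e-13), and STP4 fell by 1.63. STP13, of the same family, rose from 15.6 to 24.6 CPM to 62.0 to 64.9 CPM (log2 fold change 1.72, SE 0.21, adjusted p = 2.62e-07). The sucrose phosphate synthase SPSA1 rose by 0.76, and the phloem loader SUC2 fell by 0.60.

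Nuclear genes of photosynthesis had more falls than rises at 5 h. Of 21 light-harvesting antenna genes none rose, 10 fell and 11 did not pass (median -0.63). LHCB1.1, a main antenna protein of photosystem II, had 3631, 4741 and 5446 CPM in the dark and 1512, 1596 and 1486 CPM at 5 h, a log2 fold change of -1.59 (SE 0.30, adjusted p = 0.000108). LHCB2.1 and LHCB2.3 fell by 1.27 and 1.24, and LHCB3 and LHCB6 did not pass, at 0.26 and 0.03. The LHCB1 and LHCB2 genes are near copies, so reads may be split between them. Against the other times in the light the antenna was higher at 5 h: 10 of the 21 were above 2 h and 3 below, and 9 were above 8 h and 1 below.

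The photosystem and electron carrier genes had 12 falls, 4 rises and 15 that did not pass of 31 (median -0.39). Without dark replicate 2, 2 rose. FNR2, which passes electrons from ferredoxin to NADP, had 401, 381 and 406 CPM in the dark and 973, 911 and 959 CPM at 5 h (log2 fold change 1.26, SE 0.19, adjusted p = 6.64e-06), while its sister FNR1 fell by 0.85. The ATP synthase subunits ATPC1 and ATPD rose by 0.61 and 0.93, and the plastocyanins PETE1 and PETE2 fell by 1.11 and 0.63.

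Carbon fixation genes mostly fell. Of 22 genes of the Calvin-Benson cycle 15 fell, 2 rose and 5 did not pass (median -0.70). RCA, the activase of Rubisco, had 6938, 8857 and 8278 CPM in the dark and 2218, 1955 and 2096 CPM at 5 h, a log2 fold change of -1.94 (SE 0.27, adjusted p = 1.85e-06). The Rubisco small subunit gene RBCS2B had 3637, 5575 and 5716 CPM in the dark and 1149, 1146 and 1040 CPM at 5 h (log2 fold change -2.16, SE 0.39, adjusted p = 7.46e-05), and RBCS3B fell by 1.64; these copies are alike in sequence and the split between them is uncertain. CP12-3, of the family of small proteins that hold 2 cycle enzymes inactive in the dark, fell by 4.03, and CP12-1 and CP12-2 by 1.36 and 1.59. TKL1, a transketolase, and EMB3119, a ribose phosphate isomerase, rose by 0.80 and 0.85. Of the 3 mesophyll markers given above, RBCS1A is itself a Rubisco gene and LHCB1.3 an antenna gene, so their sum is no separate measure of mesophyll cells.

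Photorespiration, which recovers carbon lost to the oxygenase reaction of Rubisco, had no risen gene among 15, with 9 falls and 6 that did not pass (median -0.87). The glycine decarboxylase gene GLDP2 went from 665, 764 and 750 CPM to 153, 155 and 138 CPM (log2 fold change -2.29, SE 0.18, adjusted p = 2.73e-10). GLDP1, its other copy, stood at a mean of 270 CPM in the dark and 337 CPM at 5 h and did not pass. The aminotransferases AGT1 and GGAT1 fell by 2.09 and 1.61. Of the catalases, CAT2 fell from 645, 723 and 730 CPM to 150, 213 and 177 CPM (log2 fold change -1.96, SE 0.27, adjusted p = 1.59e-06), and CAT3, an evening gene, did not pass at -0.06.

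Chlorophyll synthesis genes had no common direction, with 7 risen, 8 fallen and 6 not passing of 21. The enzymes that need light to reduce protochlorophyllide all rose. PORB had 122, 140 and 148 CPM in the dark and 634, 516 and 619 CPM at 5 h (log2 fold change 2.11, SE 0.22, adjusted p = 1.64e-08), PORC rose by 1.61, and PORA, a gene of seedlings in darkness, rose from 0.484 to 1.55 CPM to 4.48 to 7.06 CPM. The subunits of magnesium chelatase also parted, CHLI1 and CHLI2 rising by 0.50 and 0.80 and CHLH and CHLD falling by 0.81 and 0.96. CHLM, CAO and HEMA1, a methyltransferase, the chlorophyll b oxygenase and a glutamyl-tRNA reductase, fell by 1.48, 1.02 and 0.59.

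**Figure D4:**
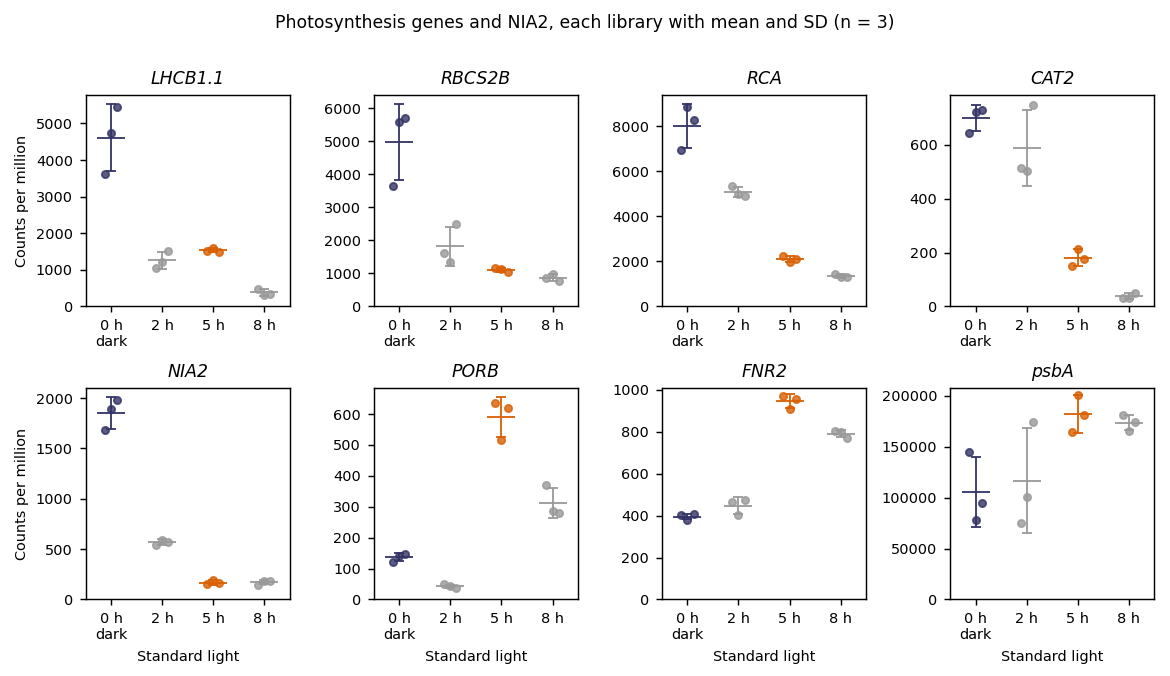
CPM (vertical axes, from 0) of photosynthesis and chlorophyll genes and the nitrate reductase gene NIA2 in the dark and after 2, 5 and 8 h of standard light; points are libraries, bars the mean and SD of 3. RCA, CAT2 and NIA2 are below all dark libraries at 5 h (orange), PORB and FNR2 above them, and psbA overlaps no dark library there but did not pass.

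Genes that protect from excess light were mostly lower or did not pass. ELIP1 and ELIP2, proteins that bind free chlorophyll under light stress, had 27.4 to 92.6 CPM and 13.3 to 36.8 CPM at 2 h and 2.14 to 3.20 CPM and 2.92 to 6.41 CPM at 5 h. Against the dark, ELIP2 rose (log2 fold change 4.89, SE 1.13, adjusted p = 0.00209), though not with limma voom (adjusted p = 0.0936), and ELIP1 did not pass (1.23, adjusted p = 0.243). The beta-carotene hydroxylases BCH1 and BCH2 fell by 1.69 and 2.51 and LUT2, the cyclase that leads to lutein, rose by 1.33. In all, 2 of 14 genes of photoprotection and carotenoids rose, 7 fell and 5 did not pass. Of 6 plastid sigma factors, nuclear proteins that guide the plastid RNA polymerase, SIG1, SIG3 and SIG5 fell, by 0.75, 1.18 and 2.16, and 3 did not pass. SIG5, which responds to light and the clock, had 53.1 to 69.2 CPM in the dark, 155 to 207 CPM at 2 h, 10.4 to 19.2 CPM at 5 h and 4.59 to 5.93 CPM at 8 h.

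Few chloroplast-encoded photosynthesis genes passed in the fit of all 21 libraries, and the counts of chloroplast-encoded genes moved with the libraries fitted. Of 42 for photosynthesis 1 rose, 5 fell and 36 did not pass. psbA, which encodes D1 at the core of photosystem II, had 144600, 78500 and 94660 CPM in the dark and 164400, 201100 and 181300 CPM at 5 h; the groups did not overlap, yet it did not pass (log2 fold change 0.78, SE 0.40, adjusted p = 0.113). In a fit of the 6 dark and 5 h libraries alone it did (adjusted p = 0.00405), and with that fit 13 of the 42 rose and 9 fell. Without dark replicate 2 or 3, or lit replicate 2 or 3, none of the 42 rose. rbcL, for the large subunit of Rubisco, was level (log2 fold change 0.02, SE 0.25, adjusted p = 0.952). Of 28 chloroplast genes for gene expression 6 rose (21.4%) and 5 fell (17.9%), beside 22.9% and 23.8% of all genes. Without dark replicate 2 the risen count was 0 and the fallen count 2. The risen count was 13 in the fit of the 6 dark and 5 h libraries alone and 10 with limma voom. Dark replicate 1 stood apart from the other dark libraries in the small genes psbN, with 504 CPM against 4786 and 3688, and rpl33, with 637 CPM against 3812 and 4427. Both were called lower at 5 h, when psbN had 427, 616 and 459 CPM and rpl33 378, 481 and 457 CPM.

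Nitrogen assimilation moved gene by gene, with 3 risen, 5 fallen and 6 not passing of 14. The shares were 21.4% risen and 35.7% fallen, beside 22.9% and 23.8% of all genes. Without lit replicate 2, or without lit replicate 3, 3 fell. NIA2, the main nitrate reductase of leaves, had 1679, 1891 and 1986 CPM in the dark and 150, 195 and 160 CPM at 5 h (log2 fold change -3.46, SE 0.28, adjusted p = 2.51e-10), whereas its copy NIA1 did not pass (0.04, adjusted p = 0.927). NIR1, the nitrite reductase that follows, rose by 1.18. The cytosolic glutamine synthetase GLN1.1 rose from 36.4 to 39.8 CPM to 311 to 365 CPM (log2 fold change 3.12, SE 0.28, adjusted p = 1.83e-09), and GLN1.2 fell by 2.14. ASN2 rose by 0.80, opposite to ASN1.

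Stress genes rose without a stress in the labels. Of 15 genes of cold and abscisic acid response 8 rose, 2 fell and 5 did not pass (median 1.51). The fallen count was 1 without dark replicate 2, lit replicate 1 or lit replicate 3. CBF3, a factor of the cold response that the clock also times, had no count in any dark library and 14.7, 28 and 25.6 CPM at 5 h, at least 107-fold above a floor of 3 counts in each dark library (adjusted p = 2.23e-07). Its relatives CBF1 and CBF2 had means of 2.46 and 3.67 CPM at 5 h and did not pass. The protective protein COR15B had 2.14, 4.77 and 3.10 CPM in the dark and 224, 466 and 434 CPM at 5 h (log2 fold change 6.81, SE 0.80, adjusted p = 3.67e-06). RD29A, also a target of CBF factors, had 21.6, 49.3 and 17.8 CPM in the dark and 726, 1560 and 1489 CPM at 5 h, or 5.41 (SE 0.82, adjusted p = 5.50e-05). Lit replicate 1 was the lowest of the 3 lit libraries in CBF3, COR15B and RD29A. GOLS3, a galactinol synthase, rose by 4.84, while GOLS1 and the phosphatase gene HAI1 fell by 2.28 and 2.18. In the direct tests 12 of the 15 were higher at 5 h than at 2 h and 2 lower, and 10 were higher than at 8 h and 1 lower.

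Of 11 heat shock and chaperone genes 9 rose and 2 did not pass (median 2.11). HSP70 had 0.415, 0.701 and 0.516 CPM in the dark and 3.14, 13.6 and 7.89 CPM at 5 h (log2 fold change 3.90, SE 0.63, adjusted p = 3.56e-05), and HSP90.1 rose by 2.40. The chaperones of the endoplasmic reticulum BIP1, BIP2 and BIP3 rose by 2.11, 2.04 and 2.1; BIP1 and BIP2 are near copies. HSFA2, a heat shock factor, had 3 counts in the dark and 30 at 5 h, a ratio of 9.17 with a 95% interval of 2.85 to 47.0. HSP17.6II was at 0 in all dark libraries and at 0.126 to 0.185 CPM at 5 h, under the floor, and its call, counted among the 9, did not hold in 8 of the alternative analyses. At 5 h these genes were still low: 9 of the 11 were higher at 8 h and none lower, HSP90.1 with 35.1 to 153 CPM.

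Most flavonoid genes were above the dark level at 2 h, 18 of 20 beside 21.1% of all genes. At 5 h 4 rose, 4 fell and 12 did not pass against the dark, and 18 were lower than at 2 h with none higher. Against the dark both shares, 20%, were near those of all genes, 22.9% risen and 23.8% fallen. The risen count at 5 h was 8 with no filter on low counts and 2 without dark replicate 1 or lit replicate 2, and the fallen count was 2 without dark replicate 1 or any 1 lit library. TT4, the chalcone synthase at the start of the route, had 33.9 to 37.7 CPM in the dark, 263 to 415 CPM at 2 h and 41.2 to 50.1 CPM at 5 h, and its dark and 5 h levels did not differ in the test (log2 fold change 0.29, SE 0.49, adjusted p = 0.658). PAP1, a Myb factor of anthocyanin synthesis, was still above the dark level, at 4.92, 17.2 and 13.7 CPM against 0.590 to 1.66 CPM (log2 fold change 3.46, SE 0.67, adjusted p = 0.000413), and TT19, a transferase that carries anthocyanin, rose by 2.83. PAL2, at the entry to phenylpropanoids, fell by 3.30.

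Growth genes had 7 falls, 3 rises and 6 that did not pass of 16 tested of 18 listed. The fallen share, 43.75%, was above the 23.8% of all genes, and the risen share, 18.75%, was near their 22.9%. XTH22, a touch- and auxin-responsive wall enzyme, had 169, 147 and 151 CPM in the dark and 8.35, 2.27 and 4.13 CPM at 5 h (log2 fold change -5.00, SE 0.52, adjusted p = 3.12e-07). The expansins EXPA1 and EXPA8 fell by 2.61 and 2.66 and EXPA3, EXPA5 and EXPA10 rose by 0.78, 1.18 and 0.98. XTH31, outside the list, was among the strongest risers, from 0, 0.491 and 0.221 CPM to 44.5, 81.0 and 54.6 CPM (log2 fold change 7.93, SE 0.65, adjusted p = 8.11e-09). Other strong risers were IGMT5, an O-methyltransferase, by 7.61, BGLU9, a beta-glucosidase, by 5.80 and TRANS11, annotated as a translocase, by 5.75.

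Genes for autophagy, by which cells digest their own contents, fell in 5 of 9 ATG8 members and rose in none. ATG8E had 177, 142 and 162 CPM in the dark and 5.57, 3.34 and 4.56 CPM at 5 h (log2 fold change -5.16, SE 0.27, adjusted p = 1.56e-13), and ATG8F fell by 2.45. By 8 h ATG8E stood at 22.6 to 25.6 CPM, and 7 of the 9 were lower at 5 h than at 8 h. Of 3 thiamine synthesis genes THIC rose by 1.18, and THI1 and TH1 did not pass. Cytosolic ribosomal protein genes were taken only where the annotated product name gave the ribosomal subunit, which left 22 loci, 7 of them not tested. Of the 15 tested 3 rose (20%) and 2 fell (13.3%), beside 22.9% and 23.8% of all genes. Genes of the family that are named otherwise are not in this list, so the counts do not describe the whole family. The risen count was 6 in the fit of the 6 dark and 5 h libraries alone and 5 with limma voom, and the fallen count was 1 without dark replicate 3, lit replicate 1 or lit replicate 3.

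**Figure D5:**
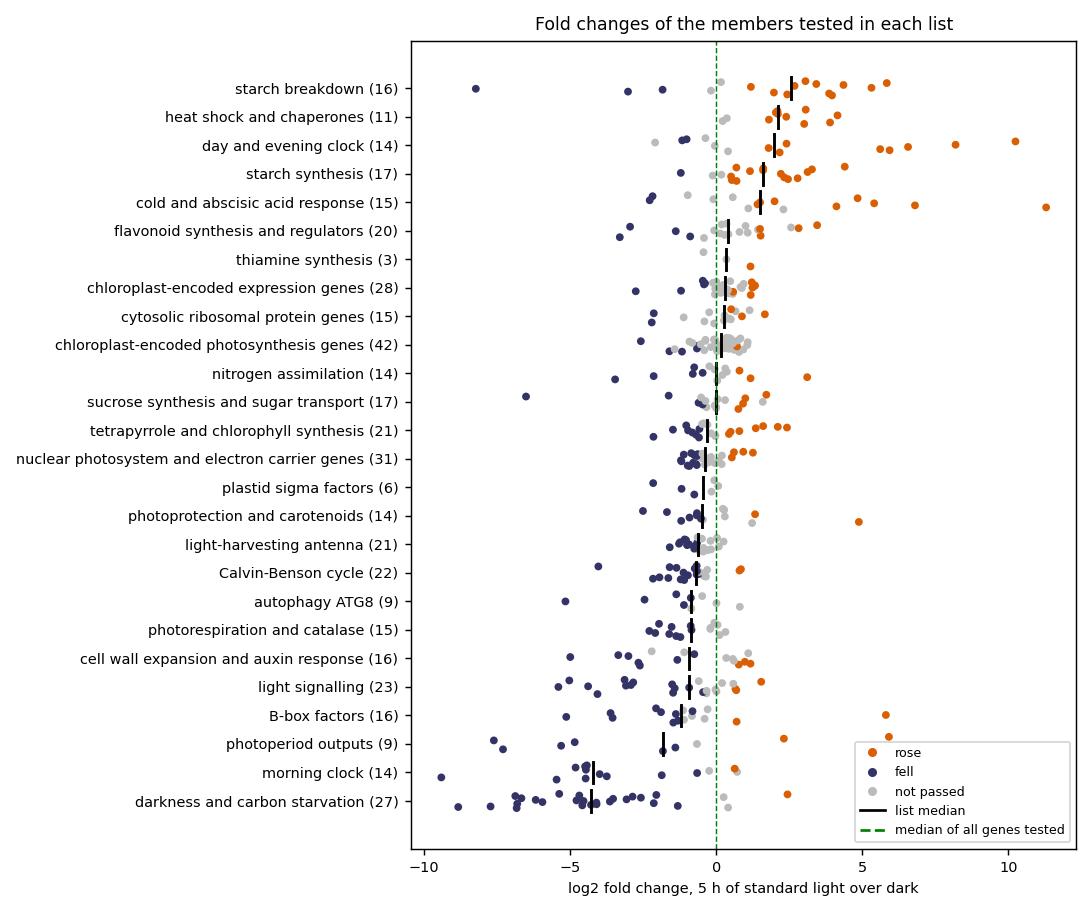
Log2 fold change at 5 h over the dark (horizontal axis) of the tested members of each list, with their number in brackets; each point is a gene, the black bar is the list median and the dashed line the median of all genes. Genes of darkness and carbon starvation and of the morning clock lie furthest left (medians -4.29 and -4.21) and starch breakdown furthest right (2.56); the points at 11.3 (CBF3) and 8.20 (ELF4) are fitted values for genes at 0 in the dark and are no bound, as is that of HSP17.6II.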

How the data were processed

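Total RNA depleted of ribosomal RNA was sequenced as single-end 75 bp reads from stranded libraries, per the series' design text. The deposited values are raw counts per gene, made by the authors with featureCounts 1.5.0 in reverse-stranded mode, per the file headers; the submitters' processing notes also name Subread 1.5.0, SAMtools 1.3.1, Trim Galore 0.4.4 and FastQC 0.11.7. The genome build is not given in the sources that were used. The authors' deposited comparison table holds log2 fold changes and an FDR per gene, made with edgeR glmTreat as its name says; only its calls were used. Copies that share reads may be split by the counting.

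Of 33341 loci, 32909 matched a RefSeq locus tag and 123 a position, and 309 had no match; 32908 of the tag matches had the same start and end in TAIR10.1. Counts of all 21 libraries were fitted in 1 edgeR 4.0.16 quasi-likelihood model (R 4.3.3, TMM, robust, filterByExpr), so the groups share 1 estimate of spread; alternatives used DESeq2 1.42.0, limma 3.58.1 (voom), other scalings, filters, samples and a replicate block. The filter left 19626 genes. SE is the log2 fold change divided by the root of F. Ribosomal RNA loci, 11 in all, stayed in. The fit was also run on simulated counts, with few genes changed, equally many up and down, and a shared spread in all groups. In the data 46.7% of genes were called, so that run cannot vouch for the fit here. Replicates of a group differed by more than sampling noise. Same-numbered dark and 5 h samples had correlations of -0.00 to 0.05, which show no pairing by number but cannot exclude shared handling.

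The groups follow the sample titles. The members and lists were chosen with earlier results of these data known. Genes are named by size (the 12 largest changes each way with a mean of at least 5 CPM, groups that do not overlap and a symbol), as up to 4 called members with the largest change in each list, and as fixed anchors such as LHY, CO and psbA; other list members were named after their values were seen. Genes with 3 counts or fewer in a group have exact 95% Clopper-Pearson ratios or a floor of 3 counts per library (0.213 CPM in the dark), which cover counting error only. Genes of the mitochondrial genome form no list, because the annotation used gives them no biotype.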

Additional observations from a re-analysis of the deposited data

Results flagged for a closer look

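In 10 of the 129 genes named by the rules on size, lists and anchors, the change from the dark at 5 h and the change at another time had opposite signs, both past the threshold, and the difference between the times was itself tested with edgeR's quasi-likelihood test. Both changes use the same dark libraries, so the log2 differences below compare 5 h directly with the other time, where the dark cancels.

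Against 2 h of light, the pseudo-response regulator gene PRR5 was higher at 5 h by 7.30 (SE 0.36, adjusted p = 1.15e-12), with log2 fold changes over the dark of -1.36 at 2 h and 5.94 at 5 h. AT4G33980, listed as COR28, had no count at 2 h and differed by a fitted 11.25 that depends on the prior count. Against 3 counts in each library AT4G33980 was at least 75.3-fold higher. Its fall at 2 h started from 0.221 to 0.553 CPM in the dark, near the floor of 3 counts there (0.213 CPM). The opposite sign at 2 h thus rests on few counts. The sugar importer STP13 was higher at 5 h by 3.30 (adjusted p = 1.23e-10) and the protochlorophyllide oxidoreductase PORB by 3.79 (adjusted p = 1.90e-11).

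Against 2 h the genes that were lower at 5 h had been above the dark level at 2 h. The sigma factor SIG5 differed by -3.70 (adjusted p = 1.19e-10) and SIG1 by -1.37 (adjusted p = 3.25e-05). CDF1 differed by -2.84 (adjusted p = 9.27e-08), GBSS1 by -2.55 (adjusted p = 8.45e-09) and LHCB4.3, an antenna gene, by -2.63 (adjusted p = 1.24e-06). Against 8 h, SWEET17, a vacuolar fructose carrier, was higher at 5 h by 1.77 (adjusted p = 9.50e-05), with 0.998 over the dark at 5 h and -0.768 at 8 h.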

How the results depend on the processing

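The counts of risen and fallen genes stayed within 1.5 times the main count under every alternative run for 5 h against dark: leaving out 1 library gave 3909 to 4370 risen and 3928 to 4404 fallen genes, and the other settings 4386 to 5219 and 4538 to 5036. Against 2 h, leaving out 1 library gave 1400 to 2026 higher and 1449 to 2072 lower genes. Against 8 h it gave 1365 to 2114 higher and 1371 to 2042 lower genes; the lowest, 1365 against 2081, was without T8L replicate 2 (8 h of standard light), and the cause was not tested. With the replicate number as a block, 4505 genes rose and 4573 fell, and 8951 of the 9160 calls remained. Same-numbered dark and 5 h samples correlated at -0.00 to 0.05, which shows no pairing by number but cannot exclude shared handling. Alternatives that leave out libraries at 2 or 8 h, or T5H replicate 3 and T2L replicate 1 together, were chosen after seeing the data. T2L replicate 1, which enters every comparison with 2 h, had 6545003 counts, the fewest of the 21 libraries, and 17.2% ribosomal RNA. T5H replicate 3 (5 h at 500 µE) had 32.9% ribosomal RNA. Without both, 5219 genes rose and 4875 fell at 5 h against dark.

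Of 129 named genes 112 had the same call in every setting run, of 16, and none changed direction there; HSP17.6II, MYB12, HSFA2 and CO did not pass the filter on low counts in the fit of the 6 dark and 5 h libraries alone. Of the 121 called, 107 stayed called in the settings run. Calls lost in some settings included those of MYB12, HSP17.6II, XTH33, AT5G02440, psbN, psbK, ndhC, rpl22, rps3, LHCB1.3 and RBCS1A, beside GAT1_2.1 and ELIP2; ELIP1, THI1 and psbA passed in some. Depth limits genes near the floor of 3 counts. The cause of the changing calls of chloroplast genes was not tested.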

Other observations

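Gene groups beyond those lists, taken by words of the annotation's product name and chosen after their values were seen, are given as counts with no test. Pentatricopeptide repeat proteins, which process RNA in chloroplasts and mitochondria, rose in 112 of 242 tested genes and fell in 8, beside 22.9% and 23.8% of all genes, with a median log2 fold change of 1.22. PPR596 had 2.42, 2.38 and 3.54 CPM in the dark and 28.9, 31.7 and 36.0 CPM at 5 h. Proteins named for ribosome biogenesis, rRNA processing or the nucleolus rose in 16 of 32 and fell in 5, and aminoacyl-tRNA ligases rose in 25 of 51 and fell in 4. Proteins named for chaperonins, RbcX1 among them, rose in 15 of 20. Protein disulfide isomerases, which fold secreted proteins, rose in 9 of 14 and fell in 1. PDIL1-1 went from 26.8, 32.5 and 34.2 CPM to 125, 117 and 106 CPM.

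Genes of DNA replication rose as well. The MCM genes, mostly subunits and helpers of the replicative helicase, rose in 7 of 8 and fell in none, with MCM6 at 2.90, 1.75 and 3.98 CPM in the dark and 15.3, 15.0 and 16.2 CPM at 5 h, and origin recognition complex genes rose in 5 of 7. The summed CPM of 4 markers of dividing cells was 23.0 to 30.9 in the dark and 16.2 to 20.4 at 5 h. Of these markers 1 fell and 3 did not pass, with a median log2 fold change of -0.24. Aquaporins, water channels of the plasma membrane and other membranes, fell in 10 of 14 and rose in none: PIP1C had 439, 507 and 516 CPM in the dark and 35.3, 45.9 and 33.9 CPM at 5 h. The small auxin-responsive SAUR genes fell in 28 of 54 and rose in 4, with a median log2 fold change of -1.74.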
